A study of Mus musculus with 20 samples.

Results

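The genes that build cholesterol and fatty acids were followed here as 32 genes, found by their symbols among the 18012 genes with values in the deposited table. All 32 were found, and all 32 passed the filter on low counts. They comprise 7 enzymes of the mevalonate and isoprenoid steps, 11 enzymes from squalene to cholesterol, 5 regulators or carriers of sterol, 4 enzymes of fatty acid synthesis, and 5 elongases or desaturases. RNA came from lung cells of male C57BL/6 mice labelled as normal, with no chemical treatment and no engineered allele named in any group, in 20 libraries at 4 per group. In 3D-2D, a collagenase digest of lung spent 4 days in a collagen hydrogel and was passaged to 2 days on plastic; in 3D-3D, both periods were in gel; in 2D-3D, 4 days on plastic were followed by 2 days in gel; in 2D-2D, both were on plastic. The sorted group was never cultured: it is the digest after magnetic beads had removed cells carrying CD45, EpCam or CD31, a depletion that the cultures did not go through. The series asks how far a culture's shape leaves a trace in lung fibroblasts that can be reversed. The labels do not say whether the 4 libraries of a group came from separate animals.

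Cholesterol is made from acetyl-CoA by way of mevalonate, isoprenoid diphosphates, squalene and lanosterol, and fatty acids are made from the same acetyl-CoA by carboxylation, chain building, elongation and desaturation. Both branches are known targets of the SREBP transcription factors, encoded by Srebf1 and Srebf2. Their precursors are held in the endoplasmic reticulum by Scap and Insig proteins while sterol is plentiful, and are carried to the Golgi and cut into active factors when it is scarce. In lung, alveolar type 2 cells make surfactant lipid and lipofibroblasts store neutral lipid, so that lipid genes belong to more than one cell type there.

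SREBPs are known to act with the factor NF-Y at promoters, and 3 promoters are printed because they are the ones among these genes with at least 4 NF-Y boxes in the RefSeq window, 1 of them also with a sterol regulatory element. They come from RefSeq on GRCm38.p6 and run for the 250 bases before the start of the gene, 5′ to 3′ on the gene's strand, which is the plus strand for all 3. The Hmgcs1 stretch lies at chr13:119690101-119690350, Mvk at chr5:114444019-114444268 and Nsdhl at chrX:72918271-72918520. Capitals mark the NF-Y box CCAAT on either strand and the sterol regulatory element TCACNCCAC, and no base belongs to both; boxes after the start are not printed.
Hmgcs1: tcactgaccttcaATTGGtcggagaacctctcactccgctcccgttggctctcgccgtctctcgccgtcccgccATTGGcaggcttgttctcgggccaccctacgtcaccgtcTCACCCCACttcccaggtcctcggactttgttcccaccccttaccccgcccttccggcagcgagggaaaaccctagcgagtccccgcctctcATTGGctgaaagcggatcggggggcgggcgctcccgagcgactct
Mvk: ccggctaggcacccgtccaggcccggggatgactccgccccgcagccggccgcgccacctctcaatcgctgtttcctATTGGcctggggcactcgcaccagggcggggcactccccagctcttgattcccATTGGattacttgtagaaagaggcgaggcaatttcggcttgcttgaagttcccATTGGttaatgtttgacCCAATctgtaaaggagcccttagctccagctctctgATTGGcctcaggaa
Nsdhl: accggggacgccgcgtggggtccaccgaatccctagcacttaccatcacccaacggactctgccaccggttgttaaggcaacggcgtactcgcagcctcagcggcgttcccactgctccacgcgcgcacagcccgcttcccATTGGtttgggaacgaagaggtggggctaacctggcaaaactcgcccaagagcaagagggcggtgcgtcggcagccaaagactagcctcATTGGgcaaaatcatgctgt
The sterol regulatory element of Hmgcs1 begins 137 bases before the start. Promoters of 25 of the 32 genes were matched in the table, with a window of 250 bases before and 50 after the start. The CCAAT box was in 20 of the 25 (80%), against 41.1% of all 27025 genes in the table. The letters TCACNCCAC were in 1 of the 25 (4%), against 1.44% of all genes, and the E-box CACGTG was in 5 of the 25 (20%), against 8.09%. These matches describe the letters in the windows.

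Cultured libraries held 19.67 to 20.33 M counts and sorted libraries 11.66 to 13.95 M. Levels are in CPM, a library's counts scaled to one common total, after TMM scaling, which adjusts for differences in composition, and each fold change is a log2 ratio with its standard error (SE) from edgeR's quasi-likelihood test. A gene was called when its p, adjusted by Benjamini and Hochberg over every gene tested, was below 0.05; 13704 genes were tested among cultures and 14715 against sorted cells. Replicate 3 of 3D-3D stood apart, since its counts differed from the other 3 of its group by a chi-square of 32.62 to 39.31 for each degree of freedom, where no other pair of replicates exceeded 25.58. It was the lowest of its group in 22 of the 32 genes, so counts are also given without it. Replicate 1 of 2D-3D was lowest in 17 of the 32 genes and replicate 1 of 3D-2D in 16. The genes thus varied partly together between libraries, and the 32 are not separate observations. For the labelled cell type, 8 fibroblast markers were all detected in every group. Their sum was 9381 to 13010 CPM in 3D-2D, 11160 to 14700 in 3D-3D and 14850 to 18390 in 2D-3D. It was 18120 to 23250 in 2D-2D and 9943 to 10750 in sorted libraries. The 8 markers did not move together. In 3D-3D against 2D-2D 4 were called higher and 4 lower, at log2 fold changes from -2.06 to 4.21. In 3D-3D against 2D-3D 2 were higher and 4 lower. In 2D-2D against sorted cells 4 were higher and 3 lower, from -5.58 to 2.42. Macrophage markers, 13 genes all detected, summed to 6093 to 7018 CPM in 3D-2D, 5838 to 7036 in 3D-3D, 9020 to 10200 in 2D-3D, 4202 to 4488 in 2D-2D and 2240 to 2309 in sorted libraries. Epithelial markers, 10 genes of which 1 was at 0 in all cultures, summed to 102.9 to 222.6 CPM in 3D-2D, 298.7 to 755.1 in 3D-3D, 15.85 to 20.18 in 2D-3D, 40.4 to 57.85 in 2D-2D and 1273 to 1612 in sorted libraries. Alveolar type 2 markers, 10 genes, summed to 310 to 389.8 CPM in 3D-2D, 1310 to 1455 in 3D-3D, 182.6 to 201.9 in 2D-3D, 172.8 to 199.4 in 2D-2D and 1013 to 1121 in sorted libraries; in 3D-3D most of this was Lcn2, and Sftpc, the defining gene, had 7.6 to 17.9 CPM in 3D-3D and 458 to 518 in sorted libraries. In bulk RNA, fewer cells of a type and less RNA per cell cannot be told apart.

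**Figure D1:**
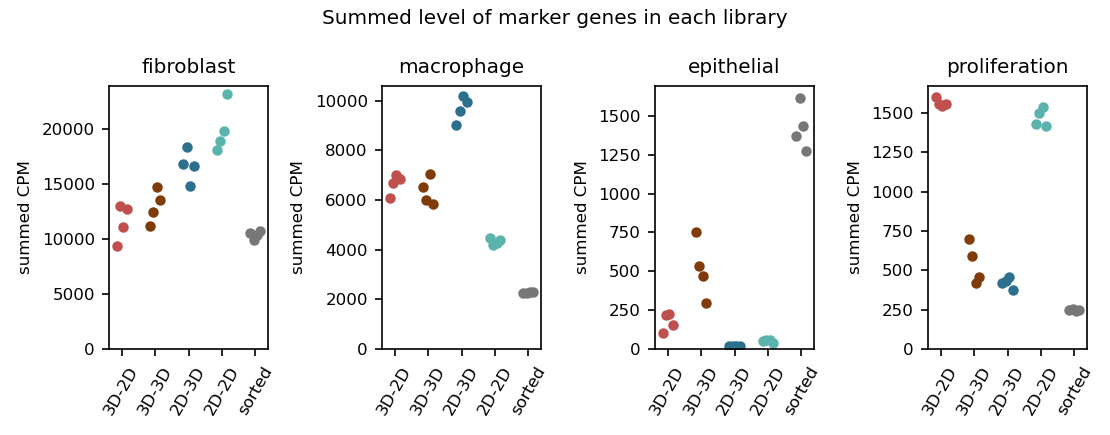
Summed CPM of the fibroblast (8 genes), macrophage (13), epithelial (10) and proliferation (12) markers, 1 point per library and 4 libraries per group, with the group along each horizontal axis. Macrophage sums are highest in 2D-3D (9020 to 10200 CPM), proliferation sums are highest in 3D-2D (1547 to 1603) and 2D-2D (1418 to 1536), and epithelial sums in cultures are highest in 3D-3D (298.7 to 755.1).

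After a second culture in gel, the genes of both branches were higher in cells whose first culture had also been in gel. In 3D-3D against 2D-3D, 26 of the 32 genes rose (81.2%) and 1 fell (3.12%), where 15% of all genes tested rose and 12.7% fell. Among the 10102 tested genes with a mean level within the range of these 32, from 5.11 to 306 CPM, 11.7% rose and 14.5% fell. The median log2 fold change was 0.56 over the 32 genes and -0.01 over all genes tested. All 7 mevalonate and isoprenoid genes rose, as did 9 of the 11 squalene and sterol genes, 3 of the 5 regulators and carriers, 3 of the 4 fatty acid synthesis genes, and 4 of the 5 elongases and desaturases. The single gene that fell was Dhcr7, and those not called were Ebp, Srebf1, Scap, Acss2 and Fads1. Without replicate 3 of 3D-3D the counts were again 26 higher and 1 lower. In the same comparison 8 of 8 epithelial markers tested, 4 of 4 lymphocyte and 8 of 9 endothelial markers were higher in 3D-3D. So were 6 of 9 alveolar type 2 and 6 of 12 proliferation markers. Of 13 macrophage markers 8 were lower and 1 higher. Lipofibroblast markers, 7 genes, divided into 3 higher and 2 lower, at log2 fold changes from -0.83 to 4.33. The part of these cells in the result was not tested.

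**Figure D2:**
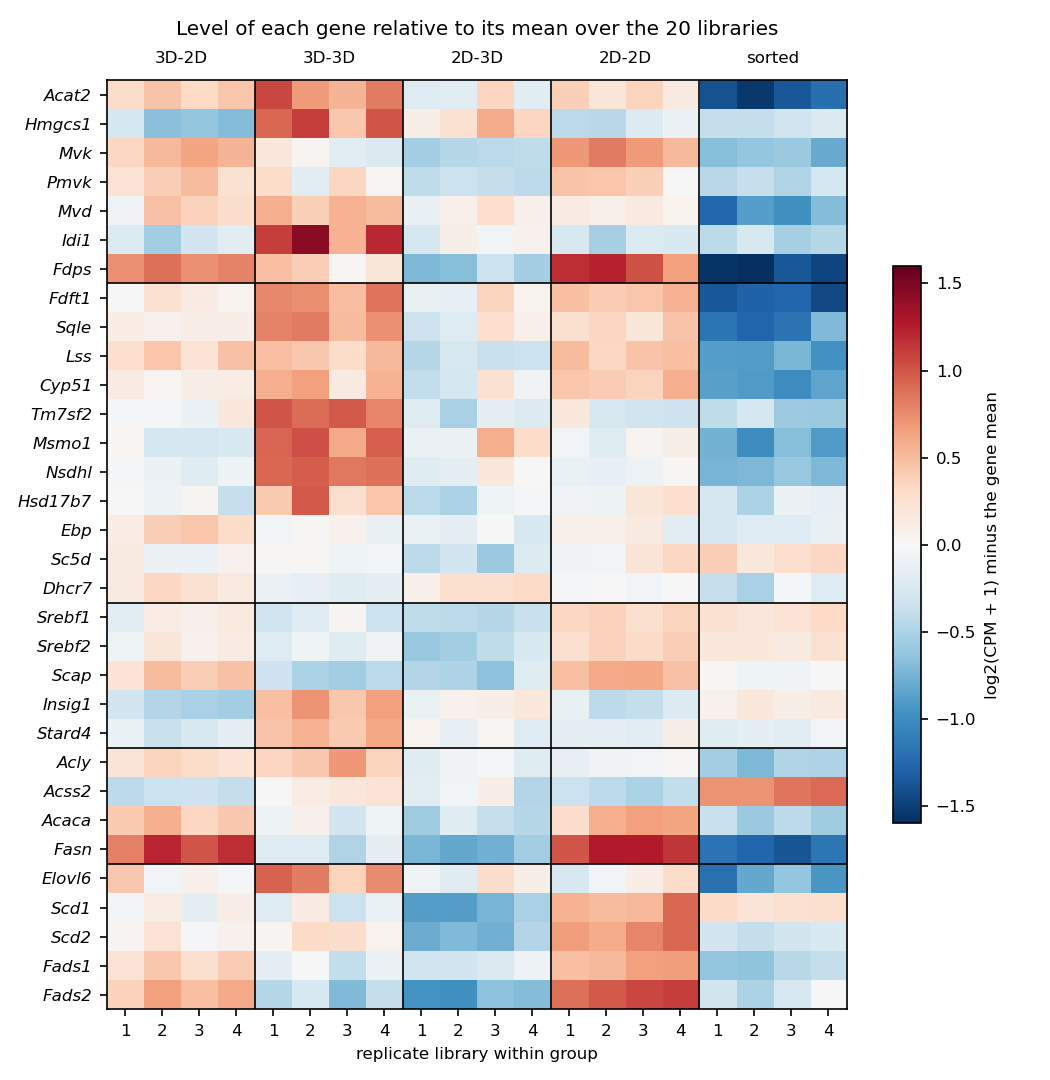
Each row is 1 of the 32 genes, grouped by role from mevalonate steps at the top to desaturases at the bottom, and each column is 1 of the 20 libraries; colour is log2(CPM + 1) minus the gene's mean over the 20 libraries. Idi1, Nsdhl, Msmo1 and Tm7sf2 are reddest in 3D-3D, and 22 of the 32 genes have their lowest culture mean in 2D-3D.

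Among the enzymes that make mevalonate and its isoprenoid products, the largest difference between 3D-3D and 2D-3D lay in Idi1, the isomerase that makes dimethylallyl diphosphate. Idi1 had 15, 11.6, 14 and 15.4 CPM in 3D-2D, 39.1, 49.7, 26.3 and 41.9 in 3D-3D, 14.4, 18.8, 17.1 and 18.6 in 2D-3D, 14.6, 11.9, 15 and 14.8 in 2D-2D, and 13, 14.6, 11.8 and 12.6 in sorted libraries. All 4 libraries of 3D-3D lay above every library of the other groups, and the third was the lowest of the 4. The log2 fold change in 3D-3D over 2D-3D was 1.18 ± 0.15 (SE), adjusted p = 3.95e-06. Hmgcs1, the synthase of HMG-CoA and the gene whose promoter holds the sterol regulatory element printed above, had 34.3, 26, 27.1 and 25.7 CPM in 3D-2D, 80.1, 92.2, 57.3 and 85.9 in 3D-3D, 44.9, 50.2, 64.2 and 53.8 in 2D-3D, 31, 30.8, 36 and 39.3 in 2D-2D, and 32.2, 32.2, 33.5 and 35.6 in sorted libraries. Both groups that ended in gel were above all others, and they overlapped each other only through replicate 3 of each. The difference between these 2 groups was 0.56 ± 0.14 (SE), adjusted p = 0.00401. Fdps, which makes farnesyl diphosphate, had 89.6, 99.7, 90.01 and 93.9 CPM in 3D-2D, 75.4, 70.8, 54.6 and 61.4 in 3D-3D, 32.1, 33.1, 42.1 and 36.5 in 2D-3D, 123, 128, 109.8 and 85.3 in 2D-2D, and 17.5, 16.9, 20.4 and 18.7 in sorted libraries. Here 2D-3D was the lowest culture with no overlap, and the sorted libraries were lower again. The log2 fold change in 3D-3D over 2D-3D was 0.85 ± 0.12 (SE), adjusted p = 1.22e-05. Acat2, the thiolase that joins acetyl-CoA units at the entry of the pathway, had 21.2, 24, 21.6 and 23.7 CPM in 3D-2D, 37.2, 28.3, 25.5 and 31.3 in 3D-3D, 14.8, 15.2, 22.1 and 15.2 in 2D-3D, 22.7, 19.8, 22.3 and 19.1 in 2D-2D, and 5.92, 5.24, 6.08 and 6.87 in sorted libraries. Libraries of 3D-3D were above all others, and replicate 3 of 2D-3D was well above the other 3 of its group; the log2 fold change in 3D-3D over 2D-3D was 0.85 ± 0.13 (SE), adjusted p = 3.24e-05. The remaining 3 genes, Mvk, Pmvk and Mvd, which turn mevalonate into isopentenyl diphosphate, rose in 3D-3D over 2D-3D by 0.42, 0.55 and 0.42 on the log2 scale.

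In the squalene and sterol steps, Fdft1, the squalene synthase that commits farnesyl diphosphate to sterol, had 84, 98.9, 91.4 and 86.8 CPM in 3D-2D, 144, 141, 118 and 154 in 3D-3D, 77.3, 76.3, 108 and 87.2 in 2D-3D, 117, 111, 114 and 123 in 2D-2D, and 32.2, 33.4, 34.2 and 29.98 in sorted libraries. Every 3D-3D library exceeded every 2D-3D library, with the third of each group closest to the other. The log2 fold change was 0.66 ± 0.10 (SE), adjusted p = 3.38e-05. Sqle, the squalene epoxidase and an oxygen-dependent control point, had 31.8, 30.6, 31.5 and 31.3 CPM in 3D-2D, 51.1, 52.7, 41.9 and 48.9 in 3D-3D, 22.7, 25.2, 35.3 and 31 in 2D-3D, 35, 37.1, 33.5 and 40.2 in 2D-2D, and 12.4, 11.5, 12.2 and 17.4 in sorted libraries. Again 3D-3D was above all other groups without overlap, and the first and second 2D-3D libraries were the lowest cultures; the log2 fold change in 3D-3D over 2D-3D was 0.76 ± 0.11 (SE), adjusted p = 2.51e-05. Lss, which closes the ring to form lanosterol, had 24.7, 28.1, 23.9 and 28.6 CPM in 3D-2D, 28.8, 27.9, 25.3 and 29.7 in 3D-3D, 14.7, 16.9, 15.7 and 15.9 in 2D-3D, 29.3, 25.9, 28.4 and 29 in 2D-2D, and 10.6, 10.5, 11.9 and 9.92 in sorted libraries. Levels in 3D-2D, 3D-3D and 2D-2D overlapped, and 2D-3D lay below all of them, 0.81 ± 0.09 (SE) on the log2 scale separating 3D-3D from 2D-3D. Tm7sf2, a sterol reductase, had 4.17, 4.24, 3.97 and 4.94 CPM in 3D-2D, 9.67, 8.82, 9.47 and 8.11 in 3D-3D, 3.62, 2.7, 3.75 and 3.53 in 2D-3D, 4.93, 3.43, 3.24 and 3.23 in 2D-2D, and 3, 3.34, 2.55 and 2.5 in sorted libraries. Its 3D-3D libraries lay well above all others, at a log2 fold change over 2D-3D of 1.40 ± 0.16 (SE), adjusted p = 1.11e-06. Msmo1, the methylsterol monooxygenase, had 58.2, 47.1, 47.2 and 47.9 CPM in 3D-2D, 109, 117, 87.5 and 112 in 3D-3D, 52.6, 53.1, 85.5 and 69.8 in 2D-3D, 55.3, 49.6, 58.6 and 61 in 2D-2D, and 33.2, 28.2, 35.3 and 29.98 in sorted libraries. Replicate 3 of 3D-3D and replicate 3 of 2D-3D lay close together without overlap, and the remaining 3D-3D libraries were far higher, with a log2 fold change of 0.69 ± 0.13 (SE).

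The other late steps followed in part. Nsdhl, a sterol dehydrogenase whose promoter is printed above, rose by 0.95 ± 0.08 (SE) in 3D-3D over 2D-3D, with 59.8 to 65.5 CPM in 3D-3D and 28.6 to 37 CPM in 2D-3D. Hsd17b7, which acts beside it as the ketosteroid reductase, rose by 0.85, Cyp51, the lanosterol demethylase, by 0.60, and Sc5d, the lathosterol desaturase, by 0.36, all as log2 fold changes. Ebp, the sterol isomerase, was not called at 0.09. Dhcr7, the reductase that yields cholesterol at the end of one route, had 27.3, 31.4, 29.4 and 27.6 CPM in 3D-2D, 23.1, 22.4, 21.5 and 22.1 in 3D-3D, 26.2, 29.8, 29.8 and 30.9 in 2D-3D, 24.1, 24.5, 23.9 and 24.8 in 2D-2D, and 18.9, 16.9, 24.2 and 21.2 in sorted libraries. All 4 libraries of 3D-3D were below all 4 of 2D-3D, in the opposite direction to the other called genes. Its log2 fold change was -0.40 ± 0.08 (SE), adjusted p = 0.000445.

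**Figure D3:**
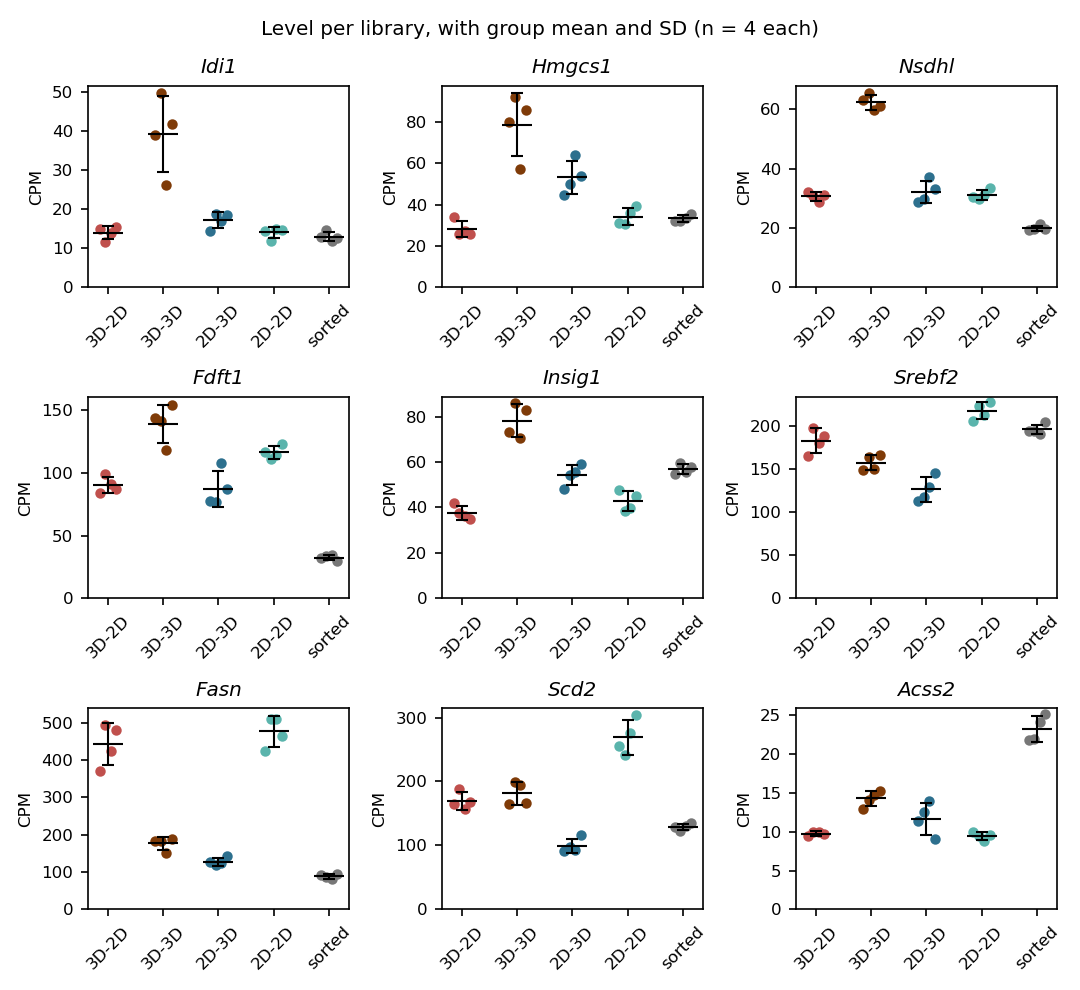
CPM (vertical axis, starting at 0) of 9 genes in each library, with the group mean (bar) and SD (n = 4 each) for 3D-2D, 3D-3D, 2D-3D, 2D-2D and sorted cells. Idi1 and Nsdhl stand alone in 3D-3D, Fasn is high in both groups that ended on plastic, Scd2 is lowest among cultures in 2D-3D, and Acss2 is highest in sorted cells.

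The sterol sensors and carriers divided into genes that moved with the enzymes and genes that did not. Insig1, which retains the SREBP precursors and is itself a known SREBP target, had 41.9, 37.3, 36 and 35 CPM in 3D-2D, 73.3, 86, 70.7 and 82.7 in 3D-3D, 48.2, 54.5, 55.4 and 58.9 in 2D-3D, 47.9, 38.6, 39.9 and 44.8 in 2D-2D, and 54.5, 59.4, 55.5 and 57.6 in sorted libraries. Libraries of 3D-3D were the highest of all groups without overlap, and the log2 fold change over 2D-3D was 0.52 ± 0.09 (SE), adjusted p = 0.000194. Stard4, a carrier of cholesterol within the cell, had 14.2, 11.7, 12.7 and 13.7 CPM in 3D-2D, 21.5, 23.1, 20.7 and 24.1 in 3D-3D, 15.9, 13.9, 15.7 and 13.2 in 2D-3D, 13.6, 13.8, 13.5 and 16.5 in 2D-2D, and 13.2, 13.7, 13.6 and 14.9 in sorted libraries. It too was highest in 3D-3D without overlap, and the log2 fold change over 2D-3D was 0.59 ± 0.10 (SE), adjusted p = 0.000146. Srebf2, whose product chiefly drives sterol genes, had 165, 198, 181 and 189 CPM in 3D-2D, 149.5, 165, 151 and 166 in 3D-3D, 113, 117, 129.9 and 146 in 2D-3D, 206, 224, 214 and 228 in 2D-2D, and 195, 194, 192 and 205 in sorted libraries. Every 2D-3D library was below every library of the other groups, and the log2 fold change in 3D-3D over 2D-3D was 0.31 ± 0.08 (SE), adjusted p = 0.00618. Srebf1, whose product chiefly drives fatty acid genes, had 68, 83, 81.3 and 85.8 CPM in 3D-2D, 61, 66.1, 78.9 and 60.4 in 3D-3D, 57.7, 56.8, 55.5 and 59.7 in 2D-3D, 96.8, 99.5, 91.7 and 98.3 in 2D-2D, and 91.1, 86.9, 89.9 and 95.6 in sorted libraries. All 4 libraries of 3D-3D were above all 4 of 2D-3D, yet the difference, 0.20 ± 0.08 (SE), adjusted p = 0.0825, missed the threshold. Scap, the escort of the SREBP precursors, had 88.8, 108, 99.96 and 106 CPM in 3D-2D, 60.1, 53.2, 51.4 and 56.3 in 3D-3D, 54.8, 54, 47.8 and 66.6 in 2D-3D, 106, 116, 117 and 106 in 2D-2D, and 77, 72.3, 72.9 and 76.1 in sorted libraries. Both groups that ended in gel were lowest and overlapped, with a difference of -0.03 ± 0.09 (SE), adjusted p = 0.874.

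In fatty acid synthesis, Acly and Fasn were higher in 3D-3D than in 2D-3D without overlap. Acly, which releases acetyl-CoA from citrate, had 175, 194, 186 and 177 CPM in 3D-2D, 192, 204, 246 and 194 in 3D-3D, 133, 146, 149 and 132 in 2D-3D, 138, 146, 147 and 153 in 2D-2D, and 104, 91.4, 108 and 108 in sorted libraries. All 3D-3D libraries exceeded all 2D-3D libraries, and in this gene replicate 3 of 3D-3D was the highest. The log2 fold change was 0.57 ± 0.08 (SE), adjusted p = 9.32e-06. Acss2, which makes acetyl-CoA from acetate, had 9.41, 10, 10.01 and 9.66 CPM in 3D-2D, 12.9, 14.1, 14.8 and 15.3 in 3D-3D, 11.3, 12.5, 13.9 and 9.02 in 2D-3D, 9.98, 9.42, 8.79 and 9.62 in 2D-2D, and 21.8, 21.9, 24.1 and 25.1 in sorted libraries. Gel-ending groups overlapped each other, at 0.28 ± 0.12 (SE), adjusted p = 0.0878. Acaca, the acetyl-CoA carboxylase, had 61.5, 68.6, 58.1 and 61.8 CPM in 3D-2D, 43.4, 48.7, 36.7 and 43.4 in 3D-3D, 30.6, 39.95, 35.2 and 33.1 in 2D-3D, 55.7, 68.7, 72.5 and 71.3 in 2D-2D, and 35.4, 30.04, 33.9 and 30.6 in sorted libraries. Here 1 library of 3D-3D fell within the range of 2D-3D, and the log2 fold change was 0.30 ± 0.10 (SE), adjusted p = 0.0339. That call was lost in 6 of 8 fits that left out 1 library, those without 3D-3D replicate 1, 2 or 4 or 2D-3D replicate 1, 3 or 4, at a log2 fold change of 0.23 to 0.31 and an adjusted p of 0.0547 to 0.126. Fasn, the fatty acid synthase, had 371, 494, 425 and 480.1 CPM in 3D-2D, 183, 183, 151 and 189 in 3D-3D, 126, 119, 123 and 143 in 2D-3D, 424, 509.8, 509 and 466 in 2D-2D, and 92.4, 86.6, 80.8 and 93.8 in sorted libraries. Both plastic-ending groups lay far above both gel-ending groups, and within gel 3D-3D exceeded 2D-3D without overlap at 0.45 ± 0.10 (SE), adjusted p = 0.000958.

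Of the genes that lengthen and desaturate the chain, Scd2 gave one of the clearest patterns. Scd2, a stearoyl-CoA desaturase, had 164, 189, 157 and 168 CPM in 3D-2D, 165, 199, 195 and 166 in 3D-3D, 91.9, 97.5, 93.3 and 116 in 2D-3D, 255, 241, 276 and 304 in 2D-2D, and 129, 123, 130.1 and 134 in sorted libraries. Cultures fell into 3 levels, with 2D-2D highest, 3D-2D and 3D-3D overlapping below it, and 2D-3D lowest. The log2 fold change in 3D-3D over 2D-3D was 0.85 ± 0.09 (SE), adjusted p = 4.92e-07. Scd1, its close paralog, had 97.7, 109, 90.5 and 109 CPM in 3D-2D, 86.9, 110, 79.3 and 93.8 in 3D-3D, 54.4, 54.3, 59.9 and 69.8 in 2D-3D, 148, 143, 146 and 191 in 2D-2D, and 124, 117, 119.9 and 120.3 in sorted libraries. The order was the same in cultures, with a log2 fold change in 3D-3D over 2D-3D of 0.62 ± 0.11 (SE), adjusted p = 0.000234. Counts of Scd1 and Scd2 may share reads, since the counting rule for reads that match both is not given in the sources used here. Elovl6, the elongase of palmitate, had 21.8, 15.4, 16.9 and 15.5 CPM in 3D-2D, 31.5, 28.9, 20.6 and 27.6 in 3D-3D, 15.3, 13.8, 19.5 and 17 in 2D-3D, 13.2, 15.4, 17.2 and 19.7 in 2D-2D, and 6.41, 8.57, 9.97 and 7.89 in sorted libraries. Libraries of 3D-3D were above those of 2D-3D, with replicate 3 of 3D-3D nearest to them, at 0.72 ± 0.15 (SE), adjusted p = 0.000999. Fads1, a desaturase of polyunsaturated chains, had 215, 248, 220 and 244 CPM in 3D-2D, 166, 184, 139.9 and 172 in 3D-3D, 146, 148, 157 and 174 in 2D-3D, 258, 262, 289.8 and 292 in 2D-2D, and 119.5, 117, 135 and 140.1 in sorted libraries. Its gel-ending groups overlapped and differed by 0.07 ± 0.09 (SE), adjusted p = 0.585. Fads2, its neighbour on chromosome 19 with the first desaturation step, had 111, 136, 120.3 and 132 CPM in 3D-2D, 62.5, 72.7, 52.3 and 65.5 in 3D-3D, 43.7, 43, 54 and 52.7 in 2D-3D, 159, 171, 182 and 187 in 2D-2D, and 69.95, 60.3, 71.9 and 85.7 in sorted libraries. Replicate 3 of 3D-3D lay within the range of 2D-3D, and the log2 fold change was 0.38 ± 0.10 (SE), adjusted p = 0.00801.

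When the second culture was on plastic, few of these genes were called between first cultures, and more of them were lower after gel. In 3D-2D against 2D-2D, 3 of the 32 genes rose (9.38%) and 8 fell (25%), where 9.74% of all genes tested rose and 10.6% fell. The share that rose is thus near that of all genes. The genes that rose were Acly at 0.32, Ebp at 0.28 and Dhcr7 at 0.24, as log2 fold changes. The genes that fell were Scd2 at -0.68, Scd1 at -0.64, Fads2 at -0.50, Fdft1 at -0.38, Cyp51 at -0.37, Srebf1 at -0.29, Fads1 at -0.26 and Srebf2 at -0.26. No mevalonate or isoprenoid gene was called, and Idi1 gave -0.02 ± 0.16 (SE). With scaling by library size alone the counts were 3 higher and 3 lower, and Scd2, Scd1 and Fads2 were the 3 that fell. With TMM, 7 of the 11 calls were lost in at least 1 of the fits that left out 1 library. The call of Cyp51 was lost in 7 of 8 such fits, those of Ebp and Dhcr7 in 5, those of Srebf2 and Fads1 in 4, and those of Fdft1 and Srebf1 in 1. Leaving out 1 library at a time gave 1 to 4 higher and 3 to 7 lower: 1 higher without the second 2D-2D, the second 3D-2D or the third 3D-2D library, 3 lower without the first 3D-2D library and 5 lower without the third. Markers were higher in 3D-2D for 12 of 13 macrophage, 6 of 8 epithelial and 4 of 4 lymphocyte genes tested. So were 3 of 9 alveolar type 2 markers, and 1 macrophage marker was lower. Among 7 lipofibroblast markers 1 was lower and 0 higher. The part of these cells in the result was not tested.

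**Figure D4:**
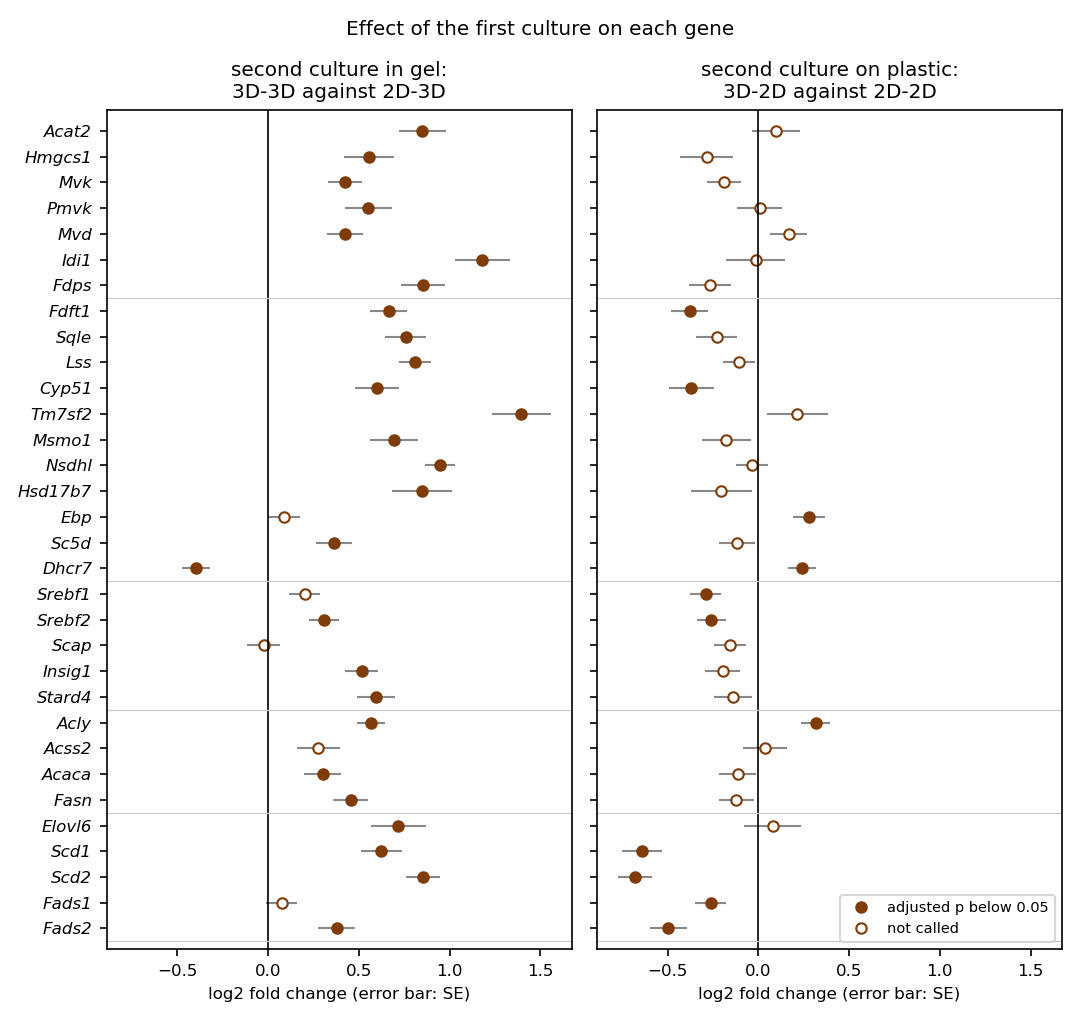
Log2 fold change of each of the 32 genes (horizontal axis, error bar SE, n = 4 libraries per group) for 3D-3D over 2D-3D on the left and 3D-2D over 2D-2D on the right; filled points have an adjusted p below 0.05. On the left 26 genes are called higher and 1 lower, and on the right 3 are called higher and 8 lower.

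The difference between these effects was tested as an interaction, the log2 effect of gel against plastic in the second culture after gel minus the same effect after plastic. It was positive and called for 25 of the 32 genes (78.1%) and negative and called for 1 (3.12%), where 10.3% of all genes tested were called positive and 9.1% negative. The median was 0.72 over the 32 genes and 0.03 over all genes tested. Scd2 had the largest value at 1.53 ± 0.13 (SE), adjusted p = 8.73e-08. Scd1 followed at 1.26, Idi1 at 1.20, Tm7sf2 at 1.18 and Fdps at 1.12. Dhcr7 was the gene with a negative call, at -0.64 ± 0.11 (SE), adjusted p = 0.000248. Mvd, Ebp, Scap, Acly, Acss2 and Fads1 were not called, with values of 0.25, -0.19, 0.13, 0.25, 0.24 and 0.34. Without replicate 3 of 3D-3D the counts stayed at 25 and 1, with Fads1 called at 0.41 and Pmvk no longer called at 0.47 (adjusted p = 0.0685). The calls of Pmvk, Acaca and Elovl6 were each lost in 12 of the 16 fits that left out 1 library, at 0.47 to 0.56, 0.35 to 0.42 and 0.53 to 0.67. Of 13 macrophage markers 11 had a negative interaction and 1 a positive one. A positive one was also called for 4 of 8 epithelial and 5 of 9 endothelial markers tested, and no proliferation marker was called. Among 7 lipofibroblast markers 3 were called positive and 1 negative, with values from -0.61 to 5.28. The part of these cells in the result was not tested.

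Over both periods together, most of the called sterol genes were higher in gel and most of the called fatty acid genes lower. In 3D-3D against 2D-2D, 15 of the 32 genes rose (46.9%) and 11 fell (34.4%), close to the 38.6% and 34.9% of all genes tested. Within these counts, 10 of the 18 genes from Acat2 to cholesterol rose and 2 fell, while 3 of the 9 fatty acid genes rose and 6 fell; with scaling by library size alone these were 13 and 2, and 3 and 6. Idi1 rose by 1.47 ± 0.15 (SE), adjusted p = 3.9e-08. Tm7sf2 rose by 1.27, Hmgcs1 by 1.19, Nsdhl by 0.99 and Msmo1 by 0.91. Mvk fell by 0.75 on the log2 scale, with 29.4 to 39 CPM in 3D-3D and 50.1 to 62.3 CPM in 2D-2D. Fdps gave -0.78. Of the fatty acid genes, Fads2 gave -1.47 ± 0.10 (SE), adjusted p = 6.88e-11. Fasn gave -1.45, Scd1 -0.77, Fads1 -0.74, Acaca -0.65 and Scd2 -0.58, and each was called lower. Elovl6, Acss2 and Acly rose, at 0.72, 0.58 and 0.51. Among the regulators Insig1 rose at 0.86 and Stard4 at 0.63, while Scap fell at -1.02, Srebf1 at -0.55 and Srebf2 at -0.48. The weakest calls were those of Fdft1, 0.25 with an adjusted p of 0.0336, and Hsd17b7, 0.49 with 0.0116. The call of Fdft1 was lost in 6 of 8 fits that left out 1 library, those without 3D-3D replicate 1, 2 or 4 or 2D-2D replicate 1, 2 or 3, with an adjusted p of 0.0568 to 0.116, and that of Hsd17b7 without the second 3D-3D library, with 0.0859. Without replicate 3 of 3D-3D the counts were 15 higher and 12 lower. All 12 proliferation markers were lower in 3D-3D. Higher were 12 of 13 macrophage, 9 of 9 endothelial, 8 of 8 epithelial, 7 of 9 alveolar type 2 and 4 of 4 lymphocyte markers tested. Among 7 lipofibroblast markers 3 were higher and 3 lower. The part of these cells in the result was not tested.

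Moving cells from plastic into gel gave a different balance, since fewer genes rose. In 2D-3D against 2D-2D, 4 of the 32 genes rose (12.5%) and 18 fell (56.2%), where 36.5% of all genes tested rose and 34.7% fell; with scaling by library size alone, which moved the median of all genes by 0.28, 10 rose and 13 fell. This comparison shares its 2D-2D libraries with the one before. The genes that rose were Hmgcs1 at 0.64, Insig1 at 0.34, Acss2 at 0.31 and Dhcr7 at 0.26. Of the 18 genes from Acat2 to cholesterol 2 rose and 9 fell, but 6 rose and 4 fell with scaling by library size alone. Fdps gave -1.63 ± 0.12 (SE), adjusted p = 1.95e-10, the largest fall among them. Mvk gave -1.18, Lss -0.83 and Pmvk -0.77. Of the 9 fatty acid genes 1 rose and 6 fell, and 2 and 6 with scaling by library size alone. Fasn gave -1.90 ± 0.10 (SE), adjusted p = 7.59e-13. Its 119 to 143 CPM in 2D-3D stood against 424 to 510 CPM in 2D-2D. Fads2 gave -1.85, Scd2 -1.44, Scd1 -1.40, Acaca -0.95 and Fads1 -0.82. Scap, Srebf2 and Srebf1 fell too, at -0.999, -0.79 and -0.75. Idi1 was not called at 0.29. The call of Acat2 was lost without 2D-3D replicate 1, 2 or 4 or 2D-2D replicate 1 or 3, at -0.29 to -0.26, and that of Acss2 without 2D-3D replicate 2 or 3 or 2D-2D replicate 2 or 3, at 0.21 to 0.30. All 12 proliferation markers were lower in 2D-3D, and 12 of 13 macrophage and 1 of 4 lymphocyte markers tested were higher. Of 9 endothelial markers 7 were higher and 1 lower, of 9 alveolar type 2 markers 4 and 1, and of 8 epithelial markers 2 and 1. Among 7 lipofibroblast markers 3 were higher and 3 lower. The part of these cells in the result was not tested.

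Most sterol genes were lower in gel-grown cells that had been moved onto plastic. In 3D-2D against 3D-3D, 11 of the 32 genes rose (34.4%) and 16 fell (50%), where 32.8% of all genes tested rose and 37.7% fell; with scaling by library size alone, which moved the median of all genes by -0.23, 7 rose and 18 fell. Of the 18 genes from Acat2 to cholesterol 4 rose and 11 fell, and of the 9 fatty acid genes 4 rose and 3 fell, against 2 and 12, and 4 and 4, with scaling by library size alone. Idi1 gave -1.49 ± 0.15 (SE), adjusted p = 4.26e-08. Hmgcs1 gave -1.48, Msmo1 -1.09, Insig1 -1.06, Tm7sf2 -1.06 and Nsdhl -1.02, all called lower in 3D-2D. Fasn rose in 3D-2D by 1.32 ± 0.10 (SE), adjusted p = 1.93e-10. Fads2 rose by 0.98, Scap by 0.86, Mvk by 0.56, Acaca by 0.54 and Fdps by 0.51. Srebf2 was called higher at 0.22, but gave -0.02 with scaling by library size alone, and the call was lost without 3D-2D replicate 2 or 4 or 3D-3D replicate 1 or 3, at 0.18 to 0.20 (adjusted p 0.0506 to 0.0687). Scd1 and Scd2 were not called, at 0.13 and -0.10. Without replicate 3 of 3D-3D 11 rose and 14 fell, since Mvd (-0.22, adjusted p = 0.0723) and Acly (-0.11, adjusted p = 0.16) were no longer called lower. Those calls were also lost without 3D-2D replicate 1 or 4, and that of Mvd without 3D-3D replicate 1 or 4, at -0.23 to -0.07 for Mvd and -0.17 to -0.11 for Acly. All 12 proliferation markers were higher in 3D-2D, and all 8 epithelial, 9 endothelial and 4 lymphocyte markers tested were lower. Of 9 alveolar type 2 markers 7 were lower and 1 higher. Among 7 lipofibroblast markers 2 were higher and 3 lower. The part of these cells in the result was not tested.

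Read across the cultures, 11 of the 18 genes from Acat2 to cholesterol had their highest mean in 3D-3D, while Mvk, Fdps, Lss and Sc5d had theirs in 2D-2D, Pmvk and Ebp in 3D-2D and Dhcr7 in 2D-3D. Fasn, Acaca and the desaturases Scd1, Scd2, Fads1 and Fads2 were highest in 2D-2D. Of the 32 genes 16 had their highest culture mean in 3D-3D, 13 in 2D-2D, 2 in 3D-2D and 1 in 2D-3D. The lowest culture mean was in 2D-3D for 22 genes, in 3D-2D for 6, in 3D-3D for 2 and in 2D-2D for 2. These are counts of group means, and neighbouring groups in an order often overlapped, as in Lss and Fads1. Spread between replicates, as the median coefficient of variation over the 32 genes, was 8.55% in 3D-2D, 11% in 3D-3D and 11.8% in 2D-3D. It was 8.72% in 2D-2D and 6.93% in sorted libraries. Single genes spread more, up to 25% for Hsd17b7 and 24.9% for Idi1 in 3D-3D and 24% for Msmo1 in 2D-3D.

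Against uncultured sorted cells, most of the genes were higher in 3D-2D, 3D-3D and 2D-2D, and about as many as not in 2D-3D. In 3D-3D, 23 of the 32 genes rose (71.9%) and 6 fell (18.8%), where 38.5% of all genes tested rose and 39.3% fell. In 3D-2D, 22 rose (68.8%) and 5 fell (15.6%), where 38.1% and 45.8% of all genes did; with scaling by library size alone the counts were 19 and 8. In 2D-3D, 17 rose (53.1%) and 8 fell (25%), where 38.2% and 39.9% did; 15 rose with scaling by library size alone, and the call of Mvk was lost in 5 of 8 fits that left out 1 library. In 2D-2D, 23 rose (71.9%) and 2 fell (6.25%), where 38.5% and 46.1% did; with scaling by library size alone, which moved the median of all genes by -0.33, the counts were 19 and 6. These 4 comparisons share the sorted libraries. Of the 18 genes from Acat2 to cholesterol, 14 rose in 3D-2D, 15 in 3D-3D, 13 in 2D-3D and 14 in 2D-2D, with 1 lower in each of 3D-2D, 3D-3D and 2D-3D, which was Sc5d.

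**Figure D5:**
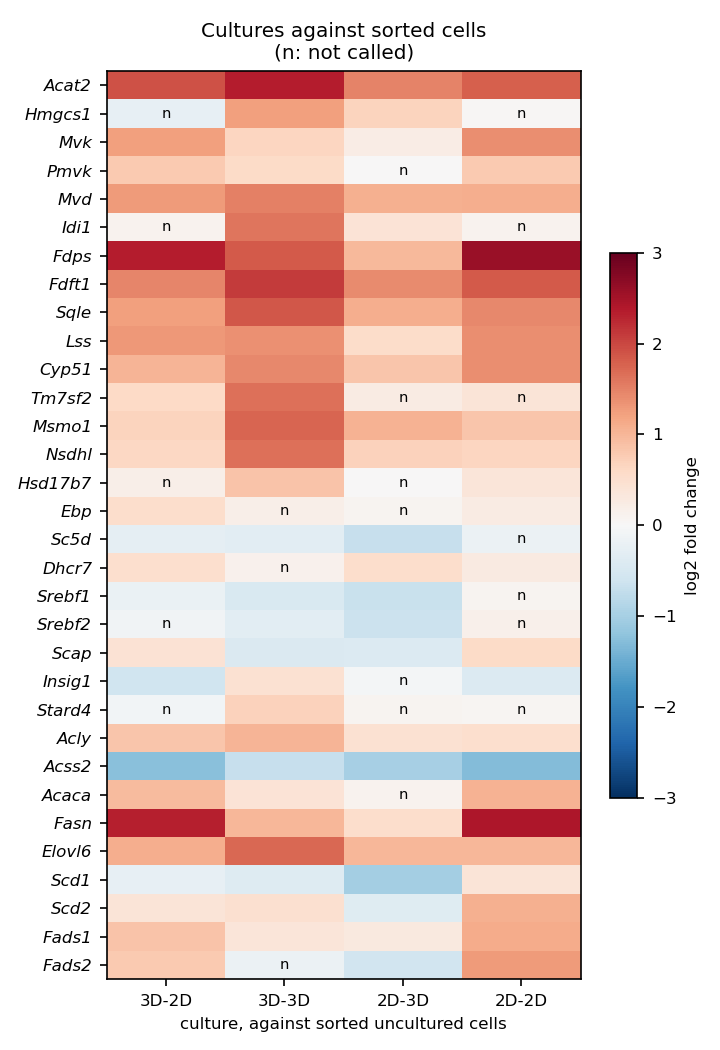
Colour gives the log2 fold change over sorted cells of each of the 32 genes (vertical axis, by role) in the 4 cultures (horizontal axis), and the letter n marks an adjusted p of 0.05 or above. Most sterol genes are red in all 4 cultures, Fdps and Fasn are strongest in 3D-2D and 2D-2D, and Acss2 is blue in all 4.

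The largest difference from sorted cells was in Fdps, at 2.60 ± 0.12 (SE), adjusted p = 1.03e-15 in 2D-2D. It was 2.35 in 3D-2D, 1.84 in 3D-3D and 0.97 in 2D-3D. Fasn came next and followed the last surface: its log2 fold change over sorted cells was 2.32 in 3D-2D, 1.00 in 3D-3D, 0.53 in 2D-3D and 2.43 in 2D-2D. Acat2 rose by 1.91 in 3D-2D, 2.35 in 3D-3D, 1.49 in 2D-3D and 1.80 in 2D-2D, and Fdft1 by 1.48, 2.10, 1.42 and 1.84 in the same cultures. Idi1 rose over sorted cells in 3D-3D, at 1.59, and in 2D-3D, at 0.41, a call that was lost without the third sorted library (0.36, adjusted p = 0.0513). In both groups that ended on plastic Idi1 was not called, at 0.11 in 3D-2D and 0.11 in 2D-2D.

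Acss2 was lower than in sorted cells in every culture, and other genes were lower in some cultures. Its log2 fold change was -1.25 in 3D-2D, -0.70 in 3D-3D, -0.99 in 2D-3D and -1.30 in 2D-2D, where every culture library was below every sorted library. Sc5d fell in 3D-2D, 3D-3D and 2D-3D, at -0.28, -0.31 and -0.69; in 3D-2D the call was lost without the first sorted library (-0.19, adjusted p = 0.0838). Srebf1 and Srebf2 were called lower in 3D-3D, at -0.45 and -0.32, and in 2D-3D, at -0.66 and -0.63. In 3D-2D Srebf1 and Scd1 were called lower too. That call of Srebf1 was lost in 4 of 8 fits that left out 1 library, at -0.165 to -0.119. The call of Scd1 was lost in 6 of 8, at -0.245 to -0.172. Of the 9 fatty acid genes 4 rose and 4 fell in 2D-3D, near the 38.2% and 39.9% of all genes tested. The counts were 7 and 2 in 3D-2D, where 38.1% of all genes rose and 45.8% fell. They were 6 and 2 in 3D-3D, where 38.5% and 39.3% did, and 8 and 1 in 2D-2D, where 38.5% and 46.1% did. Mean levels in 2D-3D and in sorted libraries were 59.6 and 120.3 CPM for Scd1 and 99.58 and 129.2 for Scd2. They were 48.36 and 71.95 for Fads2 and 55.79 and 74.59 for Scap. Insig1 had a mean of 37.58 CPM in 3D-2D and 42.8 in 2D-2D, against 78.19 in 3D-3D and 56.75 in sorted libraries. Against sorted cells Insig1 was called lower in 3D-2D, at -0.59, and in 2D-2D, at -0.41. In 2D-2D, Ebp and Dhcr7 were called higher at 0.24 and 0.26, but gave -0.09 and -0.06 with scaling by library size alone. Leaving out 1 library at a time left 2 to 5 genes lower in 3D-2D, with 2 without the first sorted library and 3 without the second or the fourth. Sorted libraries differed from cultures in the RNA levels of cell type markers. Endothelial markers, 9 genes, summed to 18.18 to 20 CPM in 3D-2D, 82.42 to 113.6 in 3D-3D, 24.84 to 30.72 in 2D-3D, 15.53 to 17.35 in 2D-2D and 2277 to 2399 in sorted libraries. Lipofibroblast markers, 7 genes, summed to 689.1 to 775.7 CPM in 3D-2D, 522.8 to 678.7 in 3D-3D, 697.3 to 832.3 in 2D-3D, 683.4 to 714.7 in 2D-2D and 2587 to 2715 in sorted libraries. Among these 7, 1 was called higher and 5 lower in 3D-2D and in 2D-2D, and 2 and 5 in 3D-3D and in 2D-3D. Proliferation markers were called higher in culture for 11 or 12 of 12 genes. Of 13 macrophage markers 9 were called higher and 4 lower in 3D-2D, and 10 and 2 in 3D-3D. The counts were 10 and 2 in 2D-3D and 8 and 5 in 2D-2D. In each culture 6 of 6 lymphocyte markers were called lower, and of 10 alveolar type 2 markers 8 were lower and 2 higher. Epithelial markers, 10 genes, did not all follow their lower sums: 4 were called higher and 6 lower in 3D-2D, and 6 and 3 in 3D-3D. In 2D-3D and in 2D-2D 0 were higher and 8 lower. The part of these cells in the results was not tested.

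Genes around the pathway were taken from lists of their own. In 3D-3D against 2D-3D, 1 of 11 genes of SREBP processing and sterol sensing rose and none fell, 0 of 14 genes of the isoprenoid branches were called, and 6 of 25 further genes of fatty acid synthesis and activation rose with none lower, where 15% of all genes tested rose and 12.7% fell. The gene of sterol sensing that rose was Rnf145, a ubiquitin ligase, at 0.37. Of 11 genes of sterol export under the LXR receptors 2 fell, Cyp27a1, a sterol hydroxylase, at -0.70 and Smpdl3a at -0.45. Of 15 genes of sterol uptake, storage and transport 2 rose and 6 fell; Nceh1 and Lipa, which hydrolyse cholesteryl esters, gave -0.73 and -0.61, and Scarb1, a lipoprotein receptor, and Tmem97 gave 0.35 and 0.33.

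In 3D-3D against 2D-2D the export list had 7 of 11 genes higher and 3 lower, where 38.6% of all genes tested rose and 34.9% fell. Its median log2 fold change was 1.12, against 0.06 over all genes tested. Nr1h3, which encodes an LXR receptor, rose by 1.68 and the cholesterol exporter Abca1 by 1.62, while Ch25h fell at -0.91. In 2D-3D against 2D-2D the same list had 7 higher and 4 lower with a median of 1.39, and Abca1 rose by 1.78. There 36.5% of all genes tested rose and 34.7% fell, so the count that fell is near that share. In 3D-2D against 3D-3D 3 of its 11 genes rose and 7 fell, with a median of -0.91, where 32.8% of all genes rose and 37.7% fell. Of 25 further fatty acid genes, 9 rose and 11 fell in 3D-3D against 2D-2D, close to the 38.6% and 34.9% of all genes, with Fads3 at -2.09, Me1, the malic enzyme that supplies NADPH, at -1.40 and Lpin1, a phosphatidate phosphatase, at 1.91. On plastic, in 3D-2D against 2D-2D, 4 of these 25 rose and 4 fell, and none of the 11 sterol sensing genes was called. Between those groups 9.74% of all genes tested rose and 10.6% fell. Macrophages also express several genes of the export and storage lists. Their markers were higher for 12 of 13 genes in 3D-3D and in 2D-3D, each against 2D-2D, whereas in 3D-2D against 3D-3D 3 were higher, 3 lower and 7 not called; their part was not tested.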

How the data were processed

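RNA sequencing of 20 libraries was grouped by the culture named in their labels, 4 libraries to a group. HISAT and Bowtie2 served for alignment to GRCm38.p6, per the submitters' processing notes; neither the versions nor the counting program, nor its rule for reads shared by paralogs, is given in the sources used here. What the authors deposited is expected counts (estimated counts) per gene; 5.98% of values are not whole (tolerance 1e-06), and they were rounded here for the tests. Of 67228 genes 49216 are blank and were left out; 5 columns of group averages were not used. No replicates held identical values.

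Low genes were filtered with filterByExpr, libraries were scaled by TMM, and edgeR 4.0.16 (R 4.3.3) fitted a quasi-likelihood model with 1 mean per group. Cultures were compared in a fit of the 16 cultured libraries, and sorted cells in a fit of all 20. Adjusted p-values are Benjamini and Hochberg's over all genes tested, with calls below 0.05. They rest on the spread between libraries alone, and this may be technical. Alternatives were size factors by RLE, DESeq2 1.42.0, limma 3.58.1 voom, library size alone, no filter, a stricter filter, a replicate block, the other set of libraries, and each library left out. Tested on simulated data for 3D-3D against 2D-3D over 13704 genes, the fit recovered 10% of 50 genes changed 1.25-fold, with 8 false calls. It recovered 62% of 50 changed 1.5-fold and 82% of 50 changed 2-fold. For the interaction it recovered 2%, 30% and 72% at these folds, also with 8 false calls. The simulated data held few changed genes and no outlying library, unlike the real data.

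All 32 genes are named. Values in every library are given for 20 genes set by name and for the member of each role list with the largest called change and no overlap in a comparison; from other pathway lists, up to 2 genes in each direction with at least 10 CPM in a group. The members, lists and this rule were chosen with earlier results of these data known.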

Additional observations from a re-analysis of the deposited data

Results flagged for a closer look

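The effect of the second culture differed with the first for 26 of the 32 genes, by the interaction test described above. Of all genes tested, 10.3% were called positive and 9.1% negative. The log2 differences, after gel minus after plastic, were 0.75 for Acat2, 0.84 for Hmgcs1, 0.61 for Mvk, 0.55 for Pmvk, 1.20 for Idi1 and 1.12 for Fdps among the mevalonate and isoprenoid genes. In the squalene and sterol steps they were 1.04 for Fdft1, 0.99 for Sqle, 0.92 for Lss, 0.97 for Cyp51, 1.18 for Tm7sf2, 0.87 for Msmo1, 0.98 for Nsdhl, 1.05 for Hsd17b7, 0.48 for Sc5d and -0.64 for Dhcr7. Srebf1 gave 0.49, Srebf2 0.57, Insig1 0.71 and Stard4 0.73. Of the fatty acid genes, Acaca gave 0.41, Fasn 0.57, Elovl6 0.64, Scd1 1.26, Scd2 1.53 and Fads2 0.87. The calls of Pmvk, Acaca and Elovl6 were each lost in 12 of 16 fits that left out 1 library.

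A single library stood far from the other 3 of its group in 10 of 160 sets of a gene and a group, by Dixon's test at 95%, where chance gives about 1 in 20. In 3D-2D the first library was highest for Hmgcs1, at 34.3 CPM, and for Msmo1, at 58.2 CPM. In 2D-3D the third library was highest for Acat2, at 22.1 CPM. In 2D-2D the fourth library was lowest for Pmvk, at 13.5 CPM, and highest for Stard4, at 16.5 CPM, and for Scd1, at 191 CPM; the second was lowest for Idi1, at 11.9 CPM, and the first highest for Tm7sf2, at 4.93 CPM. In sorted cells the fourth library was highest for Sqle, at 17.4 CPM, and the third for Nsdhl, at 21.2 CPM.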

How the results depend on the processing

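Scaling by library size alone moved most: 2D-3D against 2D-2D had 10 genes higher (4 with TMM), 3D-2D against 3D-3D 7 higher (11), 3D-2D against 2D-2D 3 lower (8), 2D-2D against sorted cells 6 lower (2) and 3D-2D against sorted cells 8 lower (5). With no filter 3D-2D had 3 lower against sorted cells. Under library size alone the sign turned for Lss (0.30) and Ebp (0.26) in 3D-3D against 2D-2D, Mvd (0.26) and Acly (0.22) in 2D-3D against 2D-2D, Srebf2 (-0.016) in 3D-2D against 3D-3D, and Ebp (-0.086), Dhcr7 (-0.061), Srebf1 (-0.24), Srebf2 (-0.17) and Stard4 (-0.27) in 2D-2D against sorted cells; the cause was not tested. No sign turned under the other alternatives among called genes. Counts for 3D-3D against 2D-3D ran from 25 to 28 higher with 1 lower over all alternatives, and for the interaction from 22 to 26 with 1. With 1 library left out, 3D-2D against 2D-2D had 1 to 4 higher and 3 to 7 lower, and 3D-2D against sorted cells 2 to 5 lower. Libraries with the same replicate number were no more alike than others (r of deviations -0.205 to 0.294 for 40 pairs, median -0.01, and -0.344 to 0.283 for 120 others). This check saw no pairing by number, which is not proof that none exists. With a replicate block, counts of higher and lower were 15 and 11 for 3D-3D against 2D-2D, 4 and 18 for 2D-3D against 2D-2D, 11 and 16 for 3D-2D against 3D-3D, 26 and 1 for 3D-3D against 2D-3D, 2 and 7 for 3D-2D against 2D-2D, and 24 and 1 for the interaction. At this depth the least abundant gene, Tm7sf2, still had 2.5 CPM in its lowest library.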

Other observations

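Against sorted cells, genes at the edges of the pathway gave further differences, in comparisons that share the sorted libraries. Of all genes tested, 38.1% rose and 45.8% fell in 3D-2D, 38.5% and 39.3% in 3D-3D, 38.2% and 39.9% in 2D-3D, and 38.5% and 46.1% in 2D-2D. Of 14 genes of the isoprenoid branches, which lead to dolichol and prenylated proteins, 10 rose and 2 fell in 3D-2D, 5 rose and 1 fell in 3D-3D, 5 rose and 1 fell in 2D-3D, and 10 rose and 2 fell in 2D-2D. In 3D-3D and 2D-3D the count that rose is near the share of all genes. Fntb, the beta subunit of farnesyltransferase, had a log2 fold change of 1.20 in 3D-2D, 0.73 in 3D-3D, 0.60 in 2D-3D and 1.27 in 2D-2D. Of the 11 genes of sterol export, 2 rose and 8 fell in 3D-2D, 3 rose and 5 fell in 3D-3D, 4 rose and 5 fell in 2D-3D, and 2 rose and 8 fell in 2D-2D. Cyp27a1, a sterol hydroxylase, gave -4.33 in 3D-2D, -3.08 in 3D-3D, -2.39 in 2D-3D and -4.98 in 2D-2D, and the exporter Abcg1 gave -4.11, -3.37, -2.96 and -4.42 in the same cultures. Abca1 rose in both groups that ended in gel, at 1.24 in 3D-3D and 1.39 in 2D-3D.

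Of 27 further fatty acid genes tested against sorted cells, 16 rose and 10 fell in 3D-2D, 14 rose and 9 fell in 3D-3D, 13 rose and 9 fell in 2D-3D, and 15 rose and 11 fell in 2D-2D; the counts that fell are near or below the shares of all genes given above. Hacd1, a dehydratase of chain elongation, had a log2 fold change of 2.82 in 3D-2D, 2.43 in 3D-3D, 1.91 in 2D-3D and 3.08 in 2D-2D. Acacb, the carboxylase linked to control of fatty acid oxidation, gave -3.36, -2.69, -2.35 and -2.46 in the same cultures. The part of macrophages, endothelium and other cells, whose marker levels are given above, was not tested for these genes.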
